A study of Mus musculus with 20 samples.

Results

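Igj, Igkc, Ighm and Mzb1 are 4 immunoglobulin and plasma cell genes among the 14633 genes of a table of HEPA1-6 tumors grown in mice. They were chosen by symbol, and the choice was made on measured values: all were higher after GSK343 in tumors given a control antibody, so their values in that comparison are given as a description, with no test. HEPA1-6 is a mouse hepatoma cell line, and its cells had been placed under the skin of C57/BL6 mice, where the tumors grew for 4 weeks. GSK343 inhibits EZH2, the enzyme of Polycomb repressive complex 2 that methylates histone H3, and CXCL10 is a chemokine that draws activated T cells. The series compares GSK343 with no GSK343 under each of 2 antibodies. The 19 libraries, each from 1 tumor, are 4 of control antibody (replicates 1, 2, 3 and 5), 5 of control antibody plus GSK343, 5 of anti-CXCL10 antibody and 5 of anti-CXCL10 antibody plus GSK343. A control-antibody replicate 4 is labelled too and was not analysed here. All tumors share the cell line and the host strain, and the labels give no dose, no age of the animals and no statement that each tumor came from its own animal, so the p-values speak only of the spread among these tumors.

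A plasma cell is a B cell that has turned into an antibody factory. It transcribes 1 heavy-chain and 1 light-chain immunoglobulin gene at a very high rate, and its class (IgM, IgG or IgA) is set by which heavy-chain constant gene lies next to the joined variable segment. Plasma cells and their precursors enter tumors with other immune cells, and in a mouse most of them use a kappa light chain.

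Igj (gene ID ENSMUSG00000067149, named Jchain in the GENCODE M21 annotation, chr5:88520512-88527891, minus strand) encodes the J chain, which links IgM and IgA units into polymers. Igkc (ENSMUSG00000076609, chr6:70726435-70726757, plus strand) is the kappa light-chain constant gene. Ighm (ENSMUSG00000076617, chr12:113418558-113422730, minus strand) is the heavy-chain constant gene of IgM. Mzb1 (ENSMUSG00000024353) encodes an endoplasmic reticulum chaperone that helps to assemble IgM. GENCODE classes Igj and Mzb1 as protein-coding and the other two as immunoglobulin constant genes. Coordinates are those of the table, on GRCm38, and none of the 4 overlaps another gene of the table.

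The heavy-chain constant genes decide the class, and the IgG copies resemble each other, so the first 60 bases of each constant transcript in GENCODE M21 are printed here, in lower case, with capitals in Ighg2b and Ighg2c where the base differs from that of Ighg1 at the same position.
Ighm: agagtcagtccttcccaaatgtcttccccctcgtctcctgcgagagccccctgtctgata
Ighg1: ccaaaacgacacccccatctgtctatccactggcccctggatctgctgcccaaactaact
Ighg2b: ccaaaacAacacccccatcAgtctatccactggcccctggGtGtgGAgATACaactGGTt
Ighg2c: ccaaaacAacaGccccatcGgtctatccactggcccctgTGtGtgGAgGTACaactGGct
Igha: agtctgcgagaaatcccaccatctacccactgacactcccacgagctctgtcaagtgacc
Igkc: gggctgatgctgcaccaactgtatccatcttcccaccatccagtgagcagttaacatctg
Over these 60 bases Ighg2b differed from Ighg1 at 13 positions and Ighg2c at 14. Over the whole transcripts Ighg2b and Ighg2c were 83.7% identical, with an identical run of 78 bases, so the split of fragments between those 2 genes is uncertain. Ighm was 63% identical to Ighg1, and their longest identical run was 10 bases.

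Igj was at 0.763, 0.154, 9.32 and 9.24 FPKM (fragments per unit of gene length and of library total) in control-antibody replicates 1, 2, 3 and 5. With GSK343 under the control antibody it was at 21.8, 69.1, 59.3, 39.6 and 32.3 FPKM in replicates 1 to 5. The treated tumors all stood above the highest control tumor, and the control tumors split into a pair near 9 FPKM and a pair under 1. With anti-CXCL10 it was at 0.433, 0.166, 0.488, 2.46 and 0 FPKM, and with anti-CXCL10 plus GSK343 at 1.5, 5.07, 1.29, 1.34 and 0.0839 FPKM. The groups with anti-CXCL10 overlapped each other and lay wholly below the tumors given control antibody plus GSK343. In RNA from a whole tumor, fewer cells of a type and less RNA per cell cannot be told apart. Replicate 5 of anti-CXCL10, listed at 0, is the only tumor without a value for this gene.

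Igkc had the highest mean of the 4 genes in every group, although Ighm exceeded it in 6 of the 19 tumors. It was at 16.0, 2.09, 172 and 62.2 FPKM in the control-antibody tumors and at 123, 353, 464, 726 and 722 FPKM with GSK343 under that antibody. One control tumor, replicate 3, exceeded the lowest treated one, so these groups overlapped. Igkc was at 11.8, 2.54, 4.01, 18.0 and 2.20 FPKM with anti-CXCL10, and at 19, 67.1, 28.4, 18.5 and 2.02 FPKM with anti-CXCL10 plus GSK343. Replicates 1 to 4 of the latter group stood above every tumor given anti-CXCL10 alone, and replicate 5 stood below all of them.

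Ighm was at 4.37, 5.15, 48.3 and 42.8 FPKM in the control-antibody tumors and at 104, 360, 397, 45.7 and 36.1 FPKM with GSK343 added. Replicates 1 to 3 of the treated group were high, whereas replicates 4 and 5 lay within the control range even though they had the most Igkc. With anti-CXCL10 the values were 4.34, 4.52, 5.95, 14.5 and 4.28 FPKM, and with anti-CXCL10 plus GSK343 they were 8.43, 18.5, 6.55, 7.51 and 4.99 FPKM. Unlike Igj, this gene did not go below 4.28 FPKM in any library.

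Mzb1, which lies at chr18:35647266-35649367 on the minus strand, was low throughout. It was at 0.048, 0, 1.20 and 0.608 FPKM in control-antibody tumors and at 0.422, 3.29, 3.64, 3.36 and 3.14 FPKM with GSK343 added. Replicate 1 of the treated group stood apart from the other 4 and inside the control range. With anti-CXCL10 it was listed at 0 in 4 of 5 tumors and at 0.0958 FPKM in replicate 2. With anti-CXCL10 plus GSK343 it was listed at 0 in 3 of 5 tumors and at 0.637 and 0.281 FPKM in replicates 2 and 3. Mzb1 reached 1 FPKM in 5 libraries, the smallest number that let a gene be tested, and 4 of them were treated tumors under the control antibody, so it entered the analysis through the group in which it is high.

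**Figure D1:**
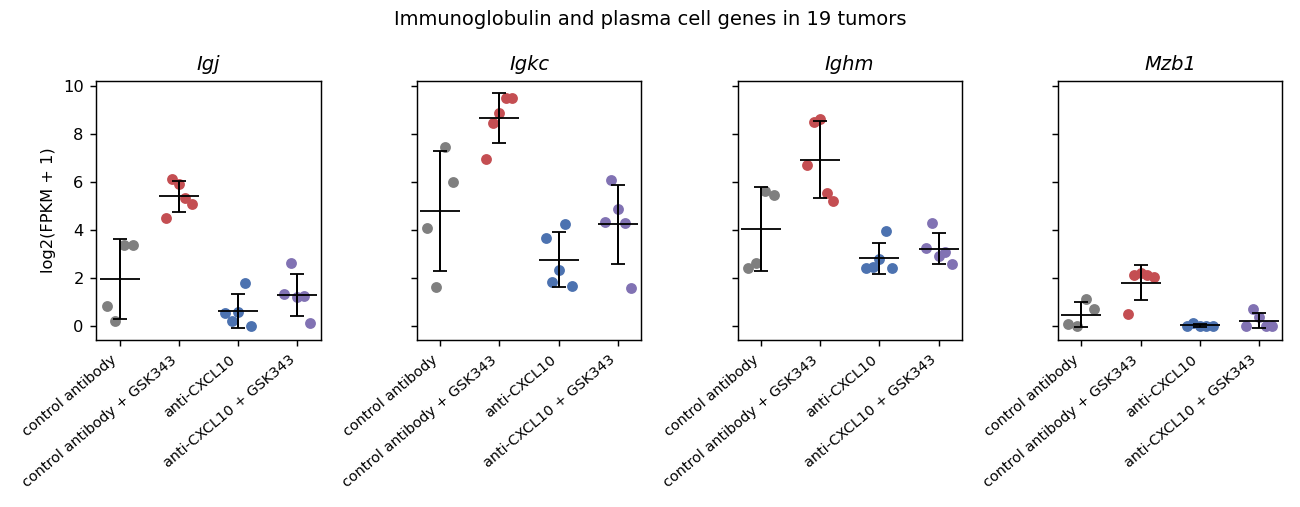
Levels of Igj, Igkc, Ighm and Mzb1 as log2(FPKM + 1) in 19 tumors, 1 point per tumor, by treatment group, with the group mean (long bar) and SD (whiskers). The 5 tumors given control antibody plus GSK343 have the highest mean of every gene, and their Igj values (21.8 FPKM and more) lie above those of all other tumors.

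In all 4 genes the group means fell in the same order. For Igj they were 44.4 ± 19.4 FPKM (SD, n = 5) with control antibody plus GSK343, 4.87 ± 5.10 (SD, n = 4) with control antibody, 1.86 ± 1.88 (SD, n = 5) with anti-CXCL10 plus GSK343 and 0.71 ± 0.999 (SD, n = 5) with anti-CXCL10. For Igkc the same order gave 477 ± 256, 63.1 ± 77.2, 27.0 ± 24.3 and 7.71 ± 6.96 FPKM. For Ighm it gave 189 ± 176, 25.2 ± 23.7, 9.20 ± 5.36 and 6.73 ± 4.42 FPKM. The 3 lower groups overlapped each other in every gene, so the order among them is within their spread.

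The 4 genes varied together across tumors, and some pairs did so less closely within groups. Over the 19 libraries, on the log2(FPKM + 1) scale, Pearson's r was 0.95 for Igj with Igkc, 0.95 for Igj with Ighm, 0.92 for Igj with Mzb1 and 0.84 for Igkc with Ighm. After the group means were subtracted, r was 0.86 for Igj with Igkc and 0.83 for Igj with Ighm. It was 0.50 for Igkc with Ighm, the pair that came apart in replicates 4 and 5 of the treated control-antibody group. For Mzb1 it was 0.68 with Igj, 0.69 with Igkc and 0.44 with Ighm, the lowest of the 6 pairs. These are descriptions over points that share libraries and groups. All 4 genes were chosen for being higher with GSK343 under the control antibody. Their r over the 19 libraries is thus partly fixed by that choice and is no support.

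GSK343 under the anti-CXCL10 antibody is the comparison that was not used to choose the genes, and it was tested. On the log2(FPKM + 1) scale, which understates the change of low genes, Igkc differed by 1.48 ± 0.96 (SE; 95% interval -0.54 to 3.50) between tumors with and without GSK343, and 4 of 5 treated tumors lay above the highest untreated one. Igj differed by 0.67 ± 0.59 (SE; -0.57 to 1.91), with 4 of 5 treated tumors above the untreated mean. Ighm differed by 0.41 ± 0.73 (SE; -1.12 to 1.95), with 3 of 5 above that mean. By limma with Benjamini-Hochberg adjustment over 14385 genes the adjusted p was 1 for each of these 3 genes, and the exact two-sided permutation p was 0.159 for Igkc, 0.19 for Igj and 0.357 for Ighm. Mzb1 was under 1 FPKM in all 10 tumors of this comparison and listed at 0 in 7 of them, so its difference of 0.19 is given with no test. None of the 3 differences tested exceeded the spread between tumors, and the intervals hold differences of up to 3.50 for Igkc and 1.91 for Igj. In that comparison limma called 0 of 14385 genes at an adjusted p under 0.05 (0%), against 418 at an unadjusted p under 0.05, so the 3 genes are like the rest of the table in passing no test.

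The other comparisons share tumors with the one that chose the genes, and their values are descriptions. GSK343 under the control antibody went with differences of 3.46 ± 0.63 for Igj, 3.87 ± 1.02 for Igkc, 2.89 ± 0.77 for Ighm and 1.33 ± 0.30 for Mzb1 (SE, log2 scale). The groups did not overlap for 1 of the 4 genes, Igj, where 4.05% of the genes tested had every treated tumor above every control tumor. Among GSK343-treated tumors, those given anti-CXCL10 were lower than those given control antibody by a log2 difference of -4.10 ± 0.59 for Igj, -4.43 ± 0.96 for Igkc, -3.70 ± 0.73 for Ighm and -1.58 ± 0.28 for Mzb1 (SE). For Igj, Igkc and Ighm these groups did not overlap, where 4.65% of the genes tested had every anti-CXCL10 tumor lower. Without GSK343 the antibody differences were -1.32 ± 0.63 for Igj, -2.03 ± 1.02 for Igkc, -1.22 ± 0.77 for Ighm and -0.45 ± 0.30 for Mzb1 (SE). Subtracting the GSK343 difference under control antibody from that under anti-CXCL10 left -2.78 ± 0.86 for Igj, -2.39 ± 1.40 for Igkc, -2.48 ± 1.06 for Ighm and -1.14 ± 0.41 for Mzb1 (SE). Over all genes, limma called 2 genes (0.0139%) for anti-CXCL10 without GSK343 and 9 genes (0.0626%) for the difference of effects. Column codes of the table number the libraries anew in the control-antibody and the anti-CXCL10 groups, and the labels do not say what that numbering marks, so the antibody and any such split cannot be told apart.

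**Figure D2:**
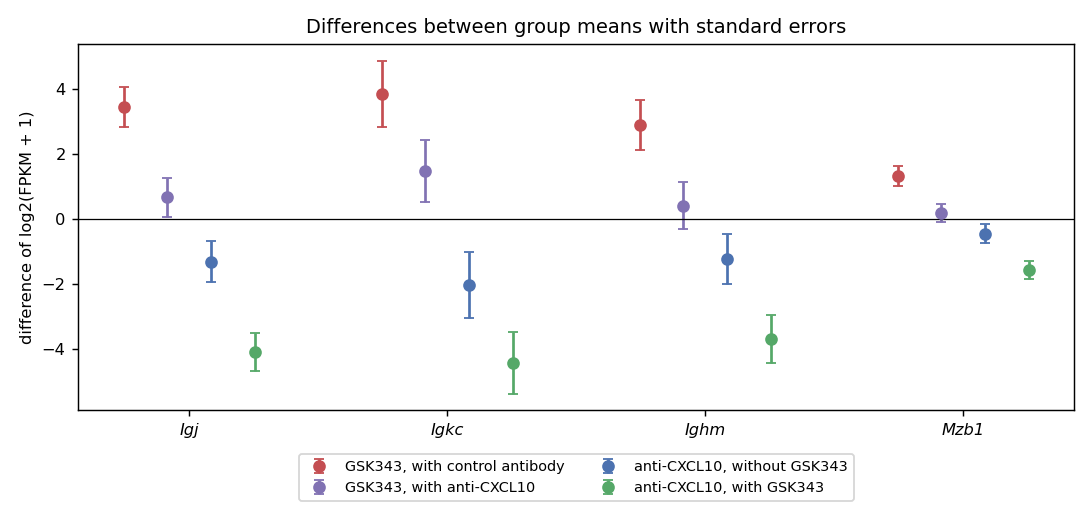
Difference of group means of log2(FPKM + 1) for the 4 genes in 4 comparisons; points are estimates and bars are standard errors. The differences for GSK343 with anti-CXCL10 lie between 0.19 and 1.48, and those for GSK343 with control antibody, which chose the genes, between 1.33 and 3.87.

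The class of antibody differed between tumors that had received the same treatment. In control antibody plus GSK343, Ighm made up 95%, 86% and 83.9% of the FPKM of the 5 heavy-chain constant genes in replicates 1, 2 and 3. In replicates 4 and 5 it made up 5.1% and 4.81%, and the 3 IgG genes together made up 91.5% and 90.2%. The same treatment thus holds 3 tumors in which the IgM gene dominates and 2 in which IgG genes do. Ighg1 was at 557 and 326 FPKM in replicates 4 and 5, against 0.958, 21.3 and 5.49 FPKM in replicates 1 to 3. Ighg2c was at 163 and 235 FPKM in replicates 4 and 5, and at 0.798, 5.23 and 36.0 FPKM in the others. These 2 genes encode the heavy chains of IgG1 and, in the C57BL/6 strain, IgG2c. Control-antibody replicate 3, the untreated tumor with the most Igkc, had 71% Ighg1 (148 FPKM), and the IgG genes together held 76.5% there, 78.5% in control-antibody replicate 1 and 65.4% in anti-CXCL10 replicate 1, so IgG-rich tumors were also present without GSK343. With anti-CXCL10 plus GSK343 the IgG genes held 58.3%, 67.3%, 73% and 66.5% in replicates 1 to 4, at a heavy-chain sum of only 25.2 to 71.0 FPKM.

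The kappa gene stayed close to the heavy-chain sum in the treated control-antibody tumors, whichever class led. In control antibody plus GSK343 the ratio of Igkc to the sum of the 5 heavy-chain constant genes was 1.13, 0.842, 0.98, 0.811 and 0.962 in replicates 1 to 5. The ratio of Igkc to Ighm alone ranged from 0.979 to 20. The heavy-chain sum ran from 109 to 895 FPKM in that group. In the libraries with the least Igkc the ratio to the heavy-chain sum was lower: 0.308 in control-antibody replicate 2, 0.344 in anti-CXCL10 plus GSK343 replicate 5 and 0.416 in anti-CXCL10 replicate 5. Ighm stood between 4.28 and 5.15 FPKM in those 3 tumors and held most of their heavy-chain signal. Within the treated control-antibody group, Igj equalled 20%, 16.5% and 12.5% of the heavy-chain sum in the 3 IgM-dominated treated tumors, and 4.43% and 4.31% in the 2 IgG-dominated ones. In the other groups the J chain share was 0% to 17.1% in the 7 tumors where Ighm held most of the heavy-chain sum and 2.83% to 7.14% in the 7 others. Of the former, control-antibody replicate 5 (sum 54 FPKM) and anti-CXCL10 replicate 4 (17.9 FPKM) had 17.1% and 13.7%. The rest had 7.68% or less at heavy-chain sums of 5.26 to 6.79 FPKM. Ighm was near its lowest values there, so their class and share are uncertain.

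**Figure D3:**
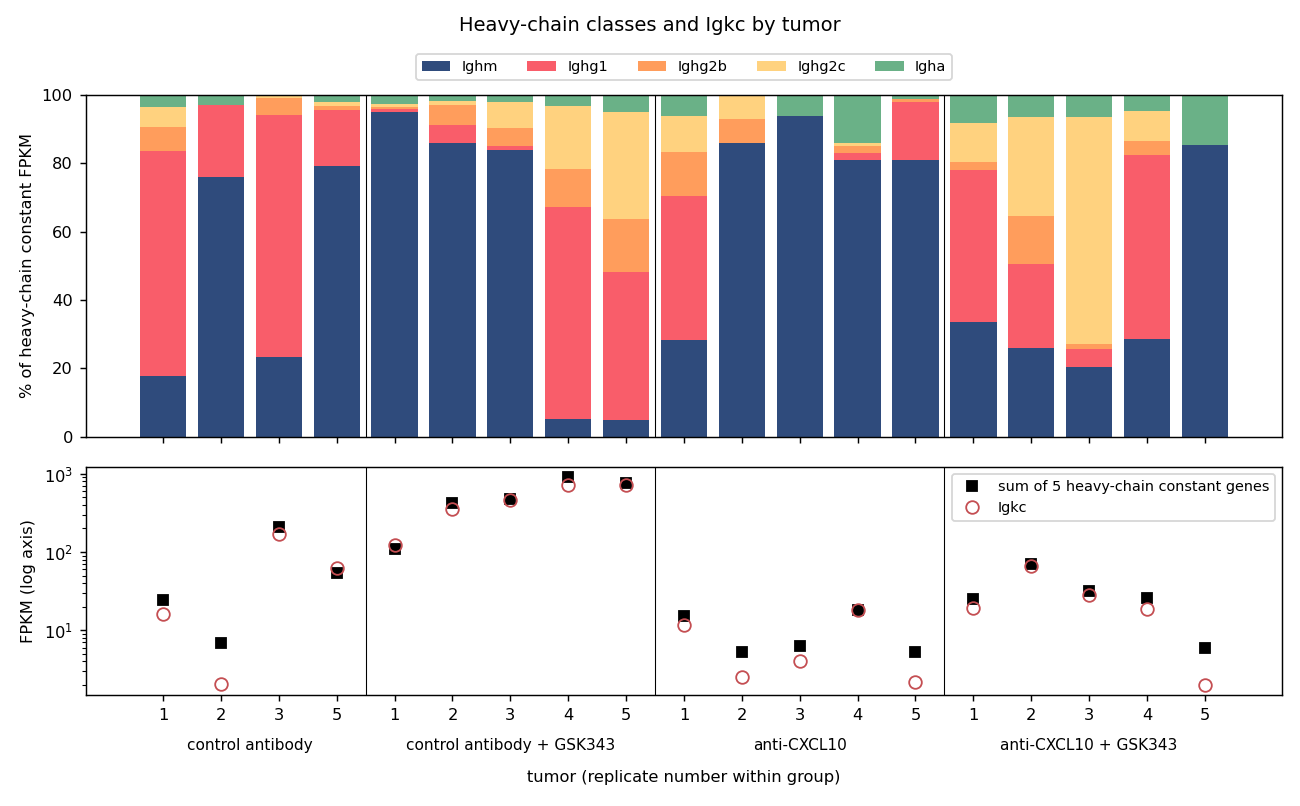
Upper panel: share of the summed FPKM of 5 heavy-chain constant genes held by each gene, 1 bar per tumor; lower panel: that sum (squares) and Igkc (circles) in FPKM on a log axis. Ighm holds 83.9% to 95% in replicates 1 to 3 of control antibody plus GSK343 and 5.1% or less in replicates 4 and 5, while Igkc stays close to the heavy-chain sum in all 5.

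The constant genes outside the 4 were not part of the choice, but they were tested in the same tumors and their transcripts come from the same kind of cell. A rise of theirs with GSK343 under the control antibody is therefore no independent support for the 4. With GSK343 under the control antibody 2 of 5 rose and 0 fell by limma at an adjusted p under 0.05, where 4.36% of all genes tested rose and 1.11% fell. Igha, the constant gene of IgA, was at 0.706 FPKM on average with control antibody and 17.5 with GSK343, a log2 change of 3.0 ± 0.54 (SE; limma adjusted p = 0.00473), with all 5 treated tumors above the highest control. Iglc2, a lambda light-chain constant gene, changed by 2.19 ± 0.55 (SE; limma adjusted p = 0.0252), but it reached 1 FPKM in all 5 treated tumors and in only 2 other libraries, so it entered the test through the group in which it is high and its calls support nothing. Ighg2c, Ighg2b and Ighg1 did not pass, with log2 differences of 3.98 ± 1.19, 3.33 ± 1.03 and 1.15 ± 1.51 (SE) and limma adjusted p of 0.0605, 0.0699 and 0.755. Leaving out each library in turn kept the call of Igha in 9 of 9 cases, at an adjusted p of at most 0.0195, and lost that of Iglc2 in 4 of 9 (highest 0.1, without control-antibody replicate 1), while 4 of the 5 passed without treated replicate 1. Among GSK343-treated tumors 3 of the 5 were lower with anti-CXCL10 by limma, where 6.64% of all genes tested were lower and 3.48% higher: Iglc2 by -2.57 ± 0.51 (adjusted p = 0.00586), Igha by -2.17 ± 0.51 (0.0136) and Ighg2b by -3.58 ± 0.97 (0.0272). The call of Ighg2b was lost in 7 of 10 single-library omissions (highest 0.0714, without anti-CXCL10 plus GSK343 replicate 5), and that of Igha in 0 of 10. With only the groups compared in the fit, 1 of the 5 passed, Iglc2, and Igha did not. Under anti-CXCL10, GSK343 changed 0 of the 5 by limma, and 0 had an unadjusted p under 0.05.

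Variable segments say which antibody genes the cells had joined. The table holds 15 kappa segments (Igkv), 42 heavy-chain segments (Ighv) and 2 lambda segments. The kappa segments that led in 1 tumor or another are shown first, because a different one led in nearly every tumor with much Igkc. Printed are the last 60 bases of each germline segment in GENCODE M21, with the codon of the last cysteine in capitals, just before the third antigen-binding loop.
Igkv19-93: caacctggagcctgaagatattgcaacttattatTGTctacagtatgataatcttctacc
Igkv15-103: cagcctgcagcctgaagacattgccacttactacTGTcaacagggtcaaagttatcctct
Igkv1-117: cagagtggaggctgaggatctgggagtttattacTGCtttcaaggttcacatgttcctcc
Igkv12-46: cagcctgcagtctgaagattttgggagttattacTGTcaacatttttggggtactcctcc
Igkv8-30: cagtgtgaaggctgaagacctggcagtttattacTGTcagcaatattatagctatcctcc
By the table's positions and the strands of GENCODE M21, these lie at chr6:68736302-68736583 (Igkv19-93, minus strand), chr6:68437468-68437925 (Igkv15-103, plus), chr6:68121091-68121827 (Igkv1-117, plus), chr6:69764523-69764992 (Igkv12-46, minus) and chr6:70117061-70117617 (Igkv8-30, minus). For Igkv19-93 the table gives a gene ID that belongs to another segment, on the plus strand, in GENCODE M21. The sequence was taken by symbol and position, which match. Between these 5 segments the identity was 65.1% to 71.5%. Among all 15, Igkv1-117 and Igkv1-110 were 97.5% identical, so the split of fragments between those 2 is uncertain.

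Igkv19-93 held 91.5% of the kappa segment FPKM in replicate 1 of control antibody plus GSK343 (49.5 of 54.2 FPKM). In replicate 2 Igkv15-103 led with 39%, in replicate 3 Igkv1-117 with 20% (36.9 FPKM, beside 32.4 for its near copy Igkv1-110), and in replicates 4 and 5 Igkv12-46 with 40% and 35%. In control-antibody replicate 3, the untreated tumor with the most Igkc, Igkv8-30 led with 46%. Replicate 1 was thus dominated by a single listed segment, while replicate 3 had all 15 at 1 FPKM or more. The sum of the kappa segments followed Igkc across the 19 libraries, with Pearson's r of 0.95 on the log2 scale and 0.85 after group means were subtracted. Most of these segments reached 1 FPKM in more treated control-antibody tumors than other tumors (Igkv5-48 and Igkv10-94 in 4 and 0). Igkc is high in the treated ones, so the correlation is partly fixed by which segments are listed and is no support. All 10 kappa segments that reached 1 FPKM in 5 libraries did so only with the treated control-antibody tumors counted, so no test of them is given for that group. Every row of the table reaches 1 FPKM in 4 libraries or more, so a segment used in fewer tumors is not seen here.

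Heavy-chain segments behaved otherwise, and their germline ends are printed for comparison. Ighv1-53 led in 8 of the 19 tumors, with Ighv5-15 next in each of them, Ighv7-3 had the same profile, and Ighv9-3 led only in the 2 IgG-dominated treated tumors and followed a profile of its own there.
Ighv1-53: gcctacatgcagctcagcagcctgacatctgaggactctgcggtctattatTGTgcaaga
Ighv5-15: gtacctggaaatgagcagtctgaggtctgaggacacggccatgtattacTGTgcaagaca
Ighv7-3: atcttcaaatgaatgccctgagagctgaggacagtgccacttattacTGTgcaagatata
Ighv9-3: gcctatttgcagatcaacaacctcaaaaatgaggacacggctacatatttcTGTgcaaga
They lie on the minus strand of chromosome 12, at chr12:115158403-115158835 (Ighv1-53), chr12:113826646-113827129 (Ighv5-15), chr12:114153180-114153644 (Ighv7-3) and chr12:114140692-114141122 (Ighv9-3). Ighv1-53 and Ighv5-15 were 61.3% identical, and the longest run they share is 9 bases. Over all 861 pairs of the 42 segments, which belong to 10 families by name, the median identity was 64.4% and the highest 98.6% (Ighv1-52 with Ighv1-61), so fragments of the closest segments may not be told apart.

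The summed FPKM of the 42 Ighv segments did not follow the 4 genes. It was 2.59, 3.12, 35.9 and 8.49 in the control-antibody tumors and 389, 318, 354, 120 and 375 with GSK343 added. With anti-CXCL10 it was 56.6, 72.6, 173, 1.5 and 227 FPKM, and with anti-CXCL10 plus GSK343 it was 0.183, 8.10, 801, 3.89 and 1082 FPKM. The 2 highest tumors of the series were therefore replicates 3 and 5 of anti-CXCL10 plus GSK343. Replicate 5 is the tumor with the least Igkc of all (2.02 FPKM), Igj at 0.0839 FPKM and no listed Ighg1, Ighg2b or Ighg2c signal. There the Ighv sum was 536 times Igkc, against 0.166 to 3.16 times in the treated control-antibody tumors. Pearson's r of the Ighv sum over the 19 libraries was 0.22 with Igkc, 0.30 with Igj and 0.30 with Ighm.

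Most of the heavy-chain segments shared 1 profile. The correlation of a segment with the sum of the other Ighv segments had a median of 0.87 (lowest 0.59, highest 0.96), and 32 of the 42 were highest in replicate 5 of anti-CXCL10 plus GSK343. Across the 42 segments, the levels in replicates 3 and 5 of that group had a Pearson's r of 0.99. Replicate 5 also matched anti-CXCL10 replicate 3 (r = 0.96) and replicate 1 of control antibody plus GSK343 (r = 0.90), and did not match replicate 4 of the latter group (r = -0.13). Between pairs of treated control-antibody tumors, the Ighv correlations were -0.09 to 0.29 with replicate 4 and 0.66 to 0.79 among the others. For the 15 kappa segments, the correlations between the same pairs ran from -0.32 to 0.53. One more row, Gm16710, is named Ighv1-74 in GENCODE M21 by its gene ID and had a correlation of 0.74 with the Ighv sum. Of the 39 Ighv segments tested, 15 reached 1 FPKM in 5 libraries only with the treated control-antibody tumors counted, and 24 without them. Among those 24, 2 rose by limma with GSK343 under the control antibody, Ighv14-3 (3.56 ± 0.92, SE; adjusted p = 0.031) and Ighv9-3 (3.48 ± 0.90; 0.0311), where 4.36% of all genes tested rose. Each call was lost in 7 of 9 single-library omissions (highest adjusted p 0.1 and 0.0901, both without control-antibody replicate 1). What the shared profile comes from was not tested.

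**Figure D4:**
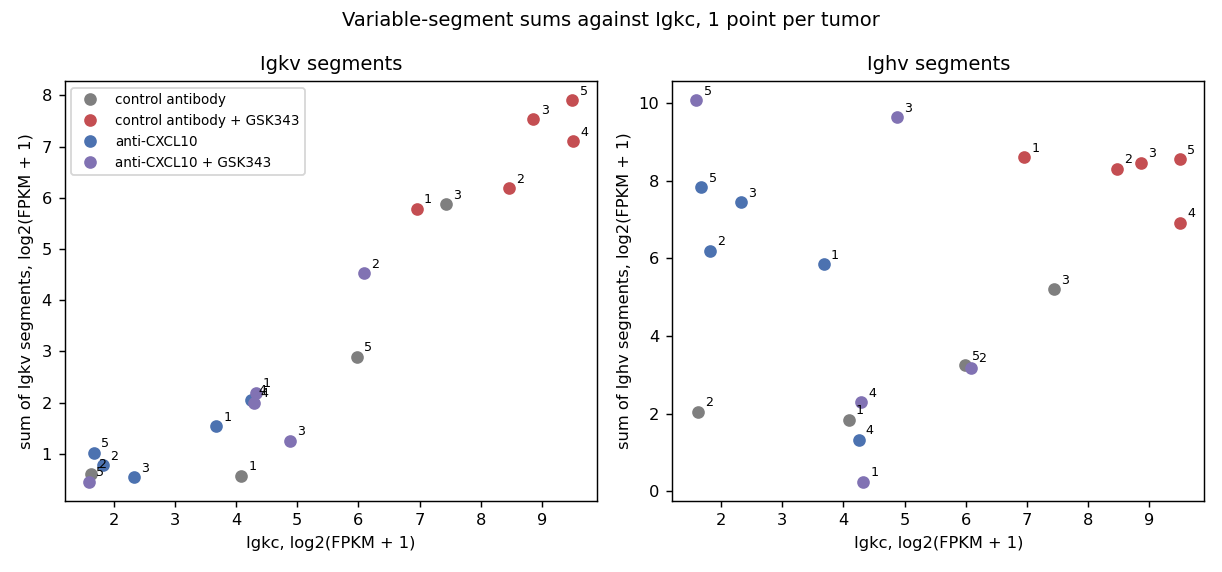
Summed level of 15 Igkv segments (left) and 42 Ighv segments (right) against Igkc, all as log2(FPKM + 1), 1 point per tumor with its replicate number. The Igkv sum follows Igkc (r = 0.95), which is partly fixed because most Igkv segments are listed through the treated control-antibody tumors. The 2 highest Ighv sums, 801 and 1082 FPKM, are in tumors with 28.4 and 2.02 FPKM of Igkc.

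**Figure D5:**
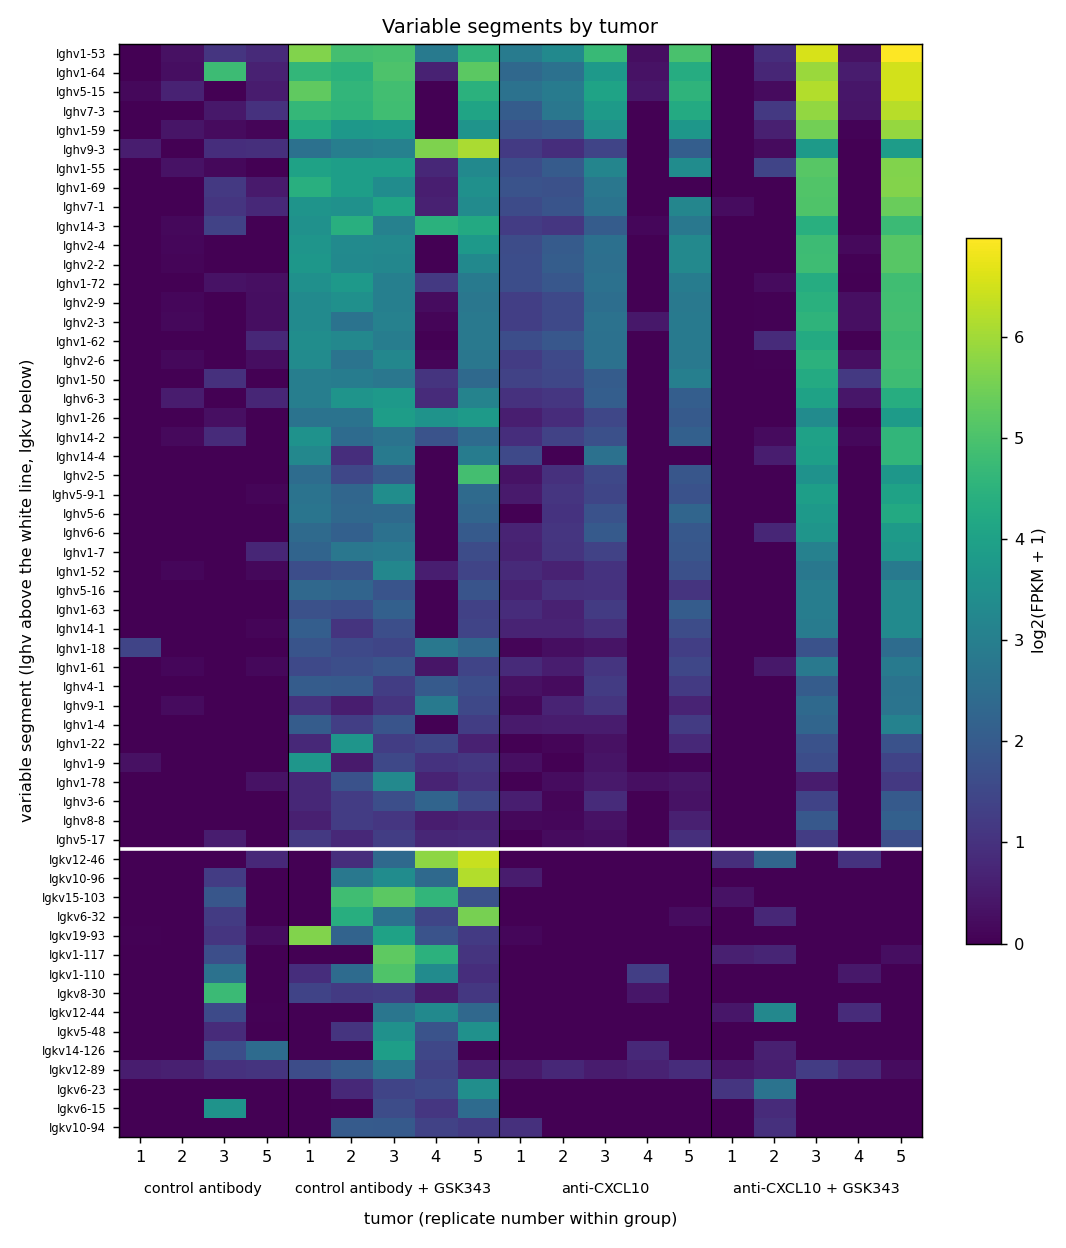
Level of each Ighv segment (above the white line) and Igkv segment (below) as log2(FPKM + 1) in the 19 tumors, columns ordered by group and replicate. Most Ighv rows share 1 pattern of high and low tumors, with 32 of 42 highest in replicate 5 of anti-CXCL10 plus GSK343 and the other 10 in control antibody plus GSK343. The Igkv rows are high mainly in control antibody plus GSK343, the group through which most of them are listed, and differ in which segment leads.

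Other genes of plasma cells moved in both directions. Of 25 such genes listed 21 were tested, and 3 rose and 2 fell with GSK343 under the control antibody by limma. Over all genes tested 4.36% rose and 1.11% fell. The median log2 change of the 21 was -0.03, equal to that of all genes. Several are high where immunoglobulin is lowest, such as Xbp1 and Sec11c at 159 and 72.9 FPKM on average with anti-CXCL10, so this median says little about plasma cells. Slamf7, a surface receptor of plasma cells and of natural killer cells, rose from 1.13 to 6.45 FPKM on average (1.83 ± 0.31, SE; adjusted p = 0.00336). Cd28 rose by 0.76 ± 0.18 (adjusted p = 0.0208) and Cd38 by 0.31 ± 0.09 (0.0426), and both are also carried by T cells. Xbp1, the transcription factor of the secretory programme, fell by 0.39 on the log2 scale (adjusted p = 0.0091) from 159 to 122 FPKM, and Sdc1, the surface protein CD138, fell by 0.26 (0.0299) from 44.9 to 37.2 FPKM. Both are also made by liver cells, and a hepatoma marker list of 16 genes had a mean level of 6.53 without and 5.91 with GSK343 (log2 scale) in the same tumors. The part of hepatoma cells in the falls of Xbp1 and Sdc1 was not tested. Prdm1, the factor that drives plasma cell differentiation, differed by -0.03 ± 0.20 (adjusted p = 0.97). The count of 5 was 2 to 8 when single libraries were left out: 2 without control-antibody replicate 1 or treated replicate 3, 3 without treated replicate 2 or 5, and 8 without treated replicate 1.

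Genes of B cells before that stage were measured as well. Of 28 B cell markers listed 13 were tested, and 2 rose with GSK343 under the control antibody, where 4.36% of all genes tested rose. They were Cd180 from 2.1 to 5.8 FPKM (1.11 ± 0.18, SE; limma adjusted p = 0.00282) and H2-Oa from 1.17 to 3.30 FPKM (0.99 ± 0.17; 0.00388), and the count was 5 without treated replicate 1. Cd79b, part of the B cell receptor, averaged 0.608 FPKM with control antibody, 1.76 with GSK343 added, 0.675 with anti-CXCL10 and 0.539 with both, and did not reach the level needed for a test. Irf4, Ms4a1 and Cd79a were not analysed here. Among GSK343-treated tumors 4 of the 13 were lower with anti-CXCL10, Cd180, Btk, Pou2f2 and Ebf1, where 6.64% of all genes tested were lower. The count was 2 without anti-CXCL10 plus GSK343 replicate 1 or without replicate 3, 4 or 5 of control antibody plus GSK343, and 1 with only the groups compared. Pou2f2 averaged 1.58 FPKM with control antibody plus GSK343 and 0.618 to 0.819 in the other groups. It entered the test through the group in which it is high, so its call supports nothing. That call was lost in 4 of the 6 single-library omissions that kept Pou2f2 in the fit. With GSK343 under anti-CXCL10, 0 of 21 plasma cell genes and 0 of 13 B cell markers passed limma's test, with 1 and 2 at an unadjusted p under 0.05. Of 40 genes of endoplasmic reticulum folding and secretion, the machinery that an antibody-secreting cell enlarges, 0 rose and 1 fell with GSK343 under the control antibody, where 1.11% of all genes tested fell. It was P4hb, by 0.34 on the log2 scale (limma adjusted p = 0.0298), a call that 6 of 9 single-library omissions lost (highest adjusted p 0.0896, without control-antibody replicate 3). Several of the 40 are high where immunoglobulin is lowest, such as Hspa5 and P4hb at 606 and 662 FPKM on average with anti-CXCL10. The list therefore says little about plasma cells. At an unadjusted p under 0.05 by limma there were 11 of the 40 (27.5%), 9 lower and 2 higher. Over all 14385 genes there were 2714 (18.9%), 1180 lower and 1534 higher.

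Genes that bind or act on antibody were also measured. Of 9 immunoglobulin receptor genes 4 rose with GSK343 under the control antibody and 0 fell: Fcer1g (1.09 ± 0.19, SE; limma adjusted p = 0.00458), Fcgr1 (0.82 ± 0.16; 0.00663), Fcgr3 (1.01 ± 0.21; 0.00837) and Fcgr4 (0.94 ± 0.22; 0.017), which are Fc receptor genes of myeloid and natural killer cells. Over all genes tested 4.36% rose and 1.11% fell. Each of the 4 receptor calls held without any 1 library, and with only the groups compared 2 of the 9 passed. Of 16 genes of the classical complement pathway 7 rose, among them C1qa, C1qb and C1qc, whose product binds IgM and IgG (0.99, 1.06 and 1.05, adjusted p of 0.00903, 0.00841 and 0.0061). The count was 4 without control-antibody replicate 5, up to 9 without another library and 1 with only the groups compared. A list of 13 macrophage markers, cells that express these genes, had a mean level of 4.64 with control antibody (4.03 to 5.05) and 5.54 with GSK343 (5.30 to 5.63), and its part in these calls was not tested. The list itself holds C1qa, C1qb, C1qc and Fcgr1, so its level is no separate measure beside their rise.

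Other markers moved with the same group. The mean level of 20 T cell markers was 2.23 to 2.73 in control-antibody tumors and 2.90 to 4.23 with GSK343 added (log2 scale). By limma 16 of the 20 rose, where 4.36% of all genes tested rose (8 without control-antibody replicate 1, 10 without its replicate 5 or treated replicate 3, 6 with only the groups compared). That of 17 skeletal muscle markers was 1.21 to 2.57 and 1.91 to 6.74, with the highest values, 4.81, 6.74 and 4.65, in treated replicates 3, 4 and 5. The part of muscle tissue in the values was not tested. Without those 3 libraries the difference for GSK343 under the control antibody, which chose the genes, was 3.39 for Igj, 2.93 for Igkc and 3.57 for Ighm, against 3.46, 3.87 and 2.89 with them. Mzb1 no longer reached the level needed for a fit. With 2 treated tumors left under that antibody, 14 of 14153 genes passed limma's test, and none of the constant, plasma cell, B cell, receptor and complement genes named here as risen did; Iglc2 no longer reached the level needed for a fit.

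The 10 genes outside the immunoglobulin loci whose profile over the 19 libraries was most like the mean of the 4 genes, of 12002 ranked, were Ifi27l2a (Pearson's r = 0.94), Sod2 (0.93), Dok2, Plcl2 and Tnfrsf18 (0.92 each), Pyhin1, Il21r, Lfng and Lpxn (0.91 each) and Alox5ap (0.90). After subtraction of the group means, r lay between 0.58 (Lfng and Alox5ap) and 0.79 (Ifi27l2a). By Spearman's rank correlation 4 of the 10 were among the top 10. Their ranges were narrower than those of the immunoglobulin genes: Ifi27l2a averaged 45.7 ± 12.2 FPKM (SD, n = 4) with control antibody, 79.1 ± 12.3 (SD, n = 5) with GSK343 added, 34.9 ± 9.99 (SD, n = 5) with anti-CXCL10 and 44.2 ± 6.95 (SD, n = 5) with both. Il21r, the receptor of interleukin 21, averaged 1.80, 4.86, 1.55 and 1.57 FPKM in the same order. The likeness is a description over libraries that also share the T cell and macrophage differences given above.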

How the data were processed

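Poly-A RNA of 19 tumors was measured, per the labels' protocols. The deposited values are FPKM per gene, a unit inferred from the values: length-weighted column sums varied by 0.79% (CV), plain sums by 4.06%. The submitters' processing notes name, as tools of the authors, StringTie 1.3.3b, HTSeq 0.6.0, HISAT2 2.1.0, TopHat2 2.1.0 and Trimmomatic 0.33, and the builds mm10 and GRCm38. The role of each tool and any strand setting are not given in the sources used here. No whole-read steps were found in the low values, so the depth is not known and the counting error of a value cannot be estimated.

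Rows of 1 gene ID were added (8 IDs, 21 rows of 14646), which left 14633 genes. The test was limma 3.58.1 (in R 4.3.3) on log2(FPKM + 1), fitted as 4 group means over the 19 libraries, with trend and robust moderation, for 14385 genes at 1 FPKM or more in at least 5 libraries. A gene was called at a Benjamini-Hochberg adjusted p under 0.05. The script was tested on simulated data. Replicates correlated at 0.942 to 0.977, and no 2 columns were identical.

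The 4 genes and the gene lists were chosen with earlier results of these data known. Named were the 4 genes, all immunoglobulin constant genes, leading variable segments, up to 4 genes of smallest p per list described, Prdm1, Xbp1, Irf4, Sdc1, Ms4a1, Cd79a and Cd79b, and the 10 genes of highest Pearson's r. Cd38, Btk, Pou2f2, Ebf1, Gm16710 and variable segments beyond the 5 highest were chosen after their values were seen. Sequences were read from GENCODE M21 transcripts (63 of 63 immunoglobulin genes matched by symbol and position) and aligned with Biopython 1.88. Alternatives were other pseudocounts, filters and scalings, a replicate block, fewer groups and leaving out each library; leaving out the 3 tumors highest in muscle markers was chosen after seeing the data.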

Additional observations from a re-analysis of the deposited data

Results flagged for a closer look

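In 16 groups (4 genes in 4 treatment groups) the highest and the lowest tumor were compared with the rest of their group. Values were taken as log2(FPKM + 1), and which tumors are flagged depends on that scale. By Dixon's criterion 3 tumors lay far from the others, and chance sets apart about 1 in 20 groups. Ighm in anti-CXCL10 replicate 4 was 14.5 FPKM, the highest of 5 tumors of which the others lay between 4.28 and 5.95. Mzb1 in replicate 1 of control antibody plus GSK343 was 0.422 FPKM, the lowest of 5, with the others at 3.14 or more. Mzb1 in anti-CXCL10 replicate 2 was 0.0958 FPKM, with the other 4 tumors listed at 0, where any value above 0 meets the criterion, so it is not to be read against that rate.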

How the results depend on the processing

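The differences of Igj, Igkc and Ighm for GSK343 under anti-CXCL10 kept their direction and missed the threshold under each alternative fitted (limma adjusted p of 0.972 to 1). With single tumors left out they ranged from 0.34 to 0.96 for Igj, 1.02 to 2.14 for Igkc, 0.15 to 0.7 for Ighm and, with no test read, 0.06 to 0.24 for Mzb1. Genes called there numbered 0 to 1 (1 without anti-CXCL10 replicate 1). B and plasma cell markers called with GSK343 under control antibody numbered 7. They were 3 with only the groups compared, 0 without the 3 tumors highest in muscle markers, and 4 to 13 with single tumors left out. Among GSK343-treated tumors the antibodies differed in 9 of these markers. Pou2f2, which passed the filter only through the treated control-antibody tumors, was among them. The count was 4 with only the groups compared, 0 without the muscle-rich tumors, and 4 to 8 with single tumors left out. For the difference of effects the count was 0, with 0 to 3 when single tumors were left out. Immunoglobulin genes outside the 4 called with GSK343 under control antibody numbered 10, of which 7 passed the filter only through the treated tumors. They were 3 with 1 FPKM required in 10 libraries, 0 without the muscle-rich tumors, and 2 to 18 with single tumors left out. Between antibodies with GSK343 they were 10 (8 of them entering that way), against 1 with the filter on 10 libraries, 3 with only the groups compared, 1 without the muscle-rich tumors, and 3 to 13 with single tumors left out; for the difference of effects they were 0 to 5. Same-numbered tumors share only a number: of 5 such pairs of the anti-CXCL10 groups, 3 had deviations correlated above 0.1 (range -0.0272 to 0.318). A replicate block gave 28 immunoglobulin genes in place of 10 under control antibody and 1 marker in place of 0 for the difference of effects. Over all genes the calls under control antibody went from 787 to 233 with only the groups compared and to 14 without the muscle-rich tumors, those between antibodies with GSK343 from 1456 to 478 without the latter, and those for the difference of effects from 9 to 57 with the replicate block.

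The size of the Igj and Mzb1 differences depended on the pseudocount: under control antibody, GSK343 went with 2.39 for Igj at a pseudocount of 5, and with 2.79 or 0.49 for Mzb1 at 0.1 or 5. Mzb1 has no value where it failed a filter (1 FPKM in 10 libraries, and several omissions). Igkc minus Ighm in the treated control-antibody tumors had a median of 0.25 on either scale. With depth unknown, values under 1 FPKM are the least certain.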
